A study of Mus musculus with 8 samples.

Results

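The 9 genes described here carry thyroid hormone into brain cells, activate or inactivate it, bind it, or respond to it. They are Slco1c1, Dio2, Dio3, Thra, Thrb, Thrsp, Klf9, Hr and Crym, taken by name from the 26711 features of a single-nucleus RNA-seq count matrix of mouse primary visual cortex (V1), and all 9 were found in it. Their levels are given in CPM, the unique molecular identifiers (UMIs) of a gene per 1000000 UMIs summed over the nuclei of 1 library and 1 deposited cell type. The matrix held 102330 nuclei of 20 cell types (8 excitatory, 5 inhibitory and 7 non-neuronal) in 8 libraries, 1 mouse each.

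All mice carried a floxed glucocorticoid receptor gene (GRfl/fl) and received at birth an AAV2/5 with the astrocyte promoter GfaABC1D. The virus encoded either Cre, giving the GR-KO mice, or an inactive ΔCre, giving the GR-Con mice, each together with membrane-bound EGFP. Mice of both kinds were normally reared (NR) or dark reared (DR) and taken at postnatal day 21, so that genotype and rearing together made 4 groups, each with 1 male and 1 female library, and a group is named by its rearing and then its genotype (NR GR-Con, for example). The recombination depends on viral delivery and on the promoter, and nuclei were sorted as DRAQ5-positive and GFP-negative.

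Thyroxine, the main circulating thyroid hormone, enters the brain through membrane transporters, among them OATP1C1, the product of Slco1c1, at the blood-brain barrier and on astrocytes. Astrocytes contain type 2 deiodinase (Dio2), which converts thyroxine to the active triiodothyronine, whereas type 3 deiodinase (Dio3) inactivates both. Triiodothyronine acts on nuclear receptors encoded by Thra and Thrb, which bind DNA with retinoid X receptors. Klf9 (a Krüppel-like transcription factor, also a known glucocorticoid target), Hr (the corepressor hairless) and Thrsp (a regulator of lipid synthesis) respond to the hormone, and Crym (mu-crystallin) binds triiodothyronine in the cytosol.

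In GRCm38 coordinates, Slco1c1 lies at chr6:141524368-141570177 on the plus strand, and Slco1b2, a related transporter gene, begins 59.3 kb beyond it. Dio2 (chr12:90724552-90738438, minus) and Dio3 (chr12:110279068-110281097, plus) are on the same chromosome. Thrb (chr14:17660261-18038090, plus) contains the whole of the antisense gene Gm48321, an overlap of 90772 bases. Thra is at chr11:98740638-98769006 (plus), and its last 1075 bases overlap Nr1d1. The other 4 genes are Thrsp (chr7:97412938-97417730, minus), Klf9 (chr19:23141226-23168134, plus), Hr (chr14:70552212-70573548, plus) and Crym (chr7:120186380-120202111, minus).

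The 250 bases upstream of the start site are shown for the 3 genes whose astrocyte levels differed between groups, Slco1c1, Klf9 and Thrsp, and for Dio2, whose level passed the likelihood ratio test in no comparison unless sex was a term. They are RefSeq windows of GRCm38.p6, written 5′ to 3′ on the gene's own strand, at chr6:141524104-141524353 (Slco1c1), chr19:23140976-23141225 (Klf9), chr7:97417551-97417800 (Thrsp) and chr12:90739039-90739288 (Dio2). The gene positions above are from another annotation (GENCODE), and its start sites can differ from those of RefSeq. The Thrsp window lies partly inside the gene as given above, and the Dio2 window does not reach its gene. Capitals mark the sequence TATAAA.

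Slco1c1: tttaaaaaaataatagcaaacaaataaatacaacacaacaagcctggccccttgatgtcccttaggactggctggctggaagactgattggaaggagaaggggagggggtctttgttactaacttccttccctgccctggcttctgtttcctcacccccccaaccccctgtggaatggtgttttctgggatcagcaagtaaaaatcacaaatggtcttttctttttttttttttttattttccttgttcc

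Klf9: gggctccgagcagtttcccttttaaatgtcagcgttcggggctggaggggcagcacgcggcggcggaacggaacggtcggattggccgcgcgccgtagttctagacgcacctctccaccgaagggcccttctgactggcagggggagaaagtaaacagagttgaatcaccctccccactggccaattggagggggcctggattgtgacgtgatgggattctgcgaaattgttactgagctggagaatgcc

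Thrsp: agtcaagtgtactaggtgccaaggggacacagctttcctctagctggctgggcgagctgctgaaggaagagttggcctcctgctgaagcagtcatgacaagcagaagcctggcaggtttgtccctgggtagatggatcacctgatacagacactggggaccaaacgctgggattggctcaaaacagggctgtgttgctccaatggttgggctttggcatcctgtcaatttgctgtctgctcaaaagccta

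Dio2: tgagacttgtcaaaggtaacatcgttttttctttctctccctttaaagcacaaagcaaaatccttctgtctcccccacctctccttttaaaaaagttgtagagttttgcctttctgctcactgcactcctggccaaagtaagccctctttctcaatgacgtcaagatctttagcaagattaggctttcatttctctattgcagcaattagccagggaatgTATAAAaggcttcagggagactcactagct

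Among the windows shown, that of Klf9 was the richest in G and C (59.6%), followed by Thrsp (53.6%), Slco1c1 (42.8%) and Dio2 (41.6%). Of the 9 genes, 6 had such a window, and 3 motifs were searched on both strands from 250 bases before to 50 bases after the start. AGGTCA, the hexamer bound by thyroid hormone receptors, was present in 16.3% of the 32851 windows and among these genes only in a Thrb window, 184 bases before the start. A direct repeat of this hexamer with a spacing of 4 bases was found in 0.0152% of all windows and in none of these genes. ACANNNTGT, the core spacing of a glucocorticoid response element, was found in 6.85% of all windows and likewise in none of them. TATAAA, searched after the sequences had been seen, was in 13.6% of windows, including those of Dio2 (30 bases before the start), Dio3 (31 bases before), another Thrb window (167 bases before) and Slco1c1 (just after the start, outside the bases shown).

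Each library held between 168632129 and 288774016 UMIs, and 1220 barcode sequences (1.21%) occurred in more than 1 library. Of 66 marker genes, 56 were highest in the type that they define, including 5 of 5 astrocyte markers but 0 of 3 for L4, 0 of 3 for L6IT, 1 of 3 for L5IT, 1 of 2 for L5PT and 2 of 3 for L6CT; these types are called by their deposited names. Cre UMIs were 0 in each GR-Con library and 190 to 1054 in the GR-KO libraries, of which 43 to 86 per library were in astrocyte nuclei and the rest in other types. The receptor gene itself, Nr3c1, was at 231 and 221 CPM in astrocytes of NR GR-Con, 284 and 268 in NR GR-KO, 263 and 207 in DR GR-Con and 274 and 275 in DR GR-KO. Every GR-KO library was thus above every GR-Con library, which describes these values only. The counts are summed per gene and do not show single exons, so they do not check a partial deletion. The NR GR-Con male, NR GR-KO male and DR GR-Con female libraries held 2 to 4 microglial nuclei each, where the others held 573 to 948. The DR GR-Con female library also held 5 endothelial, 1 mural and 3 VLMC (vascular leptomeningeal) nuclei. Microglia and chandelier cells were therefore in no comparison between groups.

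The highest level lay in different cell types for different genes. Slco1c1 was high in endothelial cells (1190 ± 283 CPM) and astrocytes (928 ± 349 CPM; SD over libraries), 61.6 CPM in VLMC and 34.7 CPM in smooth muscle cells and pericytes (SMC-Peri), and 0.8 to 8.8 CPM in every other type. Endothelial cells exceeded astrocytes in 5 of the 7 libraries with 10 or more endothelial nuclei, and in 3 of 7 with TMM-scaled CPM. By CPM the 5 included every GR-Con library of that size. The astrocyte mean pools GR-Con libraries at 499.8 to 735 CPM with GR-KO libraries at 1074 to 1429 CPM. Dio2 was at 243 ± 36.6 CPM in astrocytes (n = 8, range 190 to 306), with VLMC next at 13.9 CPM (6.15 CPM without the DR GR-KO female, which held 60.1 CPM), and at 0.5 to 0.9 CPM in the excitatory types. Astrocytes were above VLMC in 7 of 7 libraries for both genes (exact sign-flip permutation test, p = 0.0156, the smallest that 7 pairs allow). Dio3 was represented by 29 UMIs in all nuclei, 15 of them in L2/3 neurons and 0 in astrocytes, where 3 UMIs would correspond to 0.0472 CPM (counting error only). It passed the filter on low counts in no comparison between groups.

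**Figure D1:**
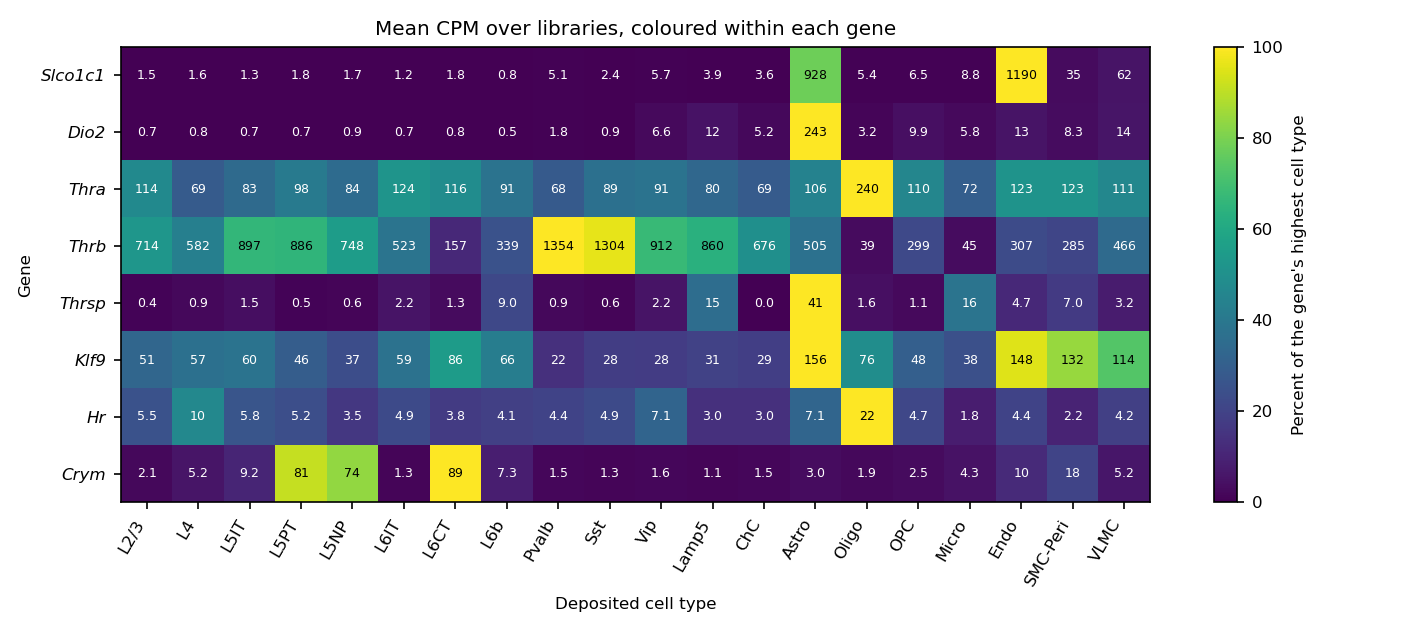
Heat map of 8 genes (rows; Dio3 is left out) in the 20 deposited cell types (columns); each cell gives the mean CPM over libraries, and its colour is that mean as a percent of the gene's highest type, so colours compare types within a gene only. Slco1c1 stands highest in endothelial cells (1190 CPM) and astrocytes (928 CPM), Dio2, Thrsp and Klf9 in astrocytes, Thra and Hr in oligodendrocytes, Thrb in Pvalb and Sst interneurons, and Crym in L6CT, L5PT and L5NP neurons.

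The 2 receptors had different orders. Thra, the receptor of most brain cells, was highest in oligodendrocytes (240 ± 5.9 CPM, n = 8), followed by L6IT neurons (124 CPM), and lowest in Pvalb interneurons (67.6 CPM). Thrb was highest in Pvalb (1354 ± 55.1 CPM) and Sst (1304 ± 91.0 CPM) interneurons, ahead of Vip (912 CPM), L5IT (897 CPM) and L5PT (886 CPM), and low in L6CT neurons (157 CPM), microglia (44.9 CPM) and oligodendrocytes (38.8 CPM). Pvalb and Sst changed places between libraries, with Thrb highest in the same type in 4 of 8, and Sst exceeded Vip in 8 of 8.

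Among response genes, Klf9 was at 156 ± 50.2 CPM in astrocytes, 148 CPM in endothelial cells, 132 CPM in SMC-Peri and 114 CPM in VLMC. Klf9 was highest in astrocytes in 4 of 8 libraries, which were the GR-Con libraries, and in no GR-KO library. It reached 85.9 CPM in L6CT neurons, its highest neuron type, and 21.8 CPM in Pvalb interneurons. Thrsp was highest in astrocytes (41.5 ± 18.5 CPM), ahead of microglia (15.9 CPM) and Lamp5 interneurons (14.7 CPM). Hr was highest in oligodendrocytes (21.9 ± 2.7 CPM) in 8 of 8 libraries, ahead of L4 neurons (10.2 CPM) and astrocytes (7.1 CPM). Crym was carried by 3 deep-layer types, L6CT (88.7 ± 9.6 CPM), L5PT (80.8 ± 18.4 CPM) and L5NP (74.1 ± 8.9 CPM), with SMC-Peri at 18.2 CPM and the rest at 10.5 CPM or less. Within a gene, neighbouring types in these orders were compared by an exact two-sided sign-flip permutation test over libraries: none of 171 pairs passed after Benjamini-Hochberg adjustment (smallest adjusted p = 0.223), 13 had an unadjusted p under 0.05, and 22 kept the same order in every library. With 8 libraries the smallest p is 0.0078, so the order is a description.

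The genes most like each member across the 20 types, by Pearson correlation of log2(CPM + 1) over 13626 genes, are given as descriptions; each gene's points share libraries and depth. Slco1c1 was most like Id3 (0.976), S1pr1 (0.976) and Ephb4 (0.960). Dio2 was most like Gm26512 (0.956), which overlaps it by 238 bases on the other strand, and Gpam (0.945), and Thrb was most like its antisense gene Gm48321 (0.988), then Slc4a3 (0.900) and Abca5 (0.895). Thra followed Llgl1 (0.837), Thrsp followed Trappc9 (0.871), Klf9 followed Spindoc (0.882) and Yap1 (0.850), Hr followed Cacna2d4 (0.800), and Crym followed Fezf2 (0.899), a transcription factor of deep-layer projection neurons. Among the members the closest pair was Slco1c1 and Dio2 (0.836).

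Which of these genes depended on astrocyte GR was asked by GR-KO against GR-Con within each rearing. In astrocytes of normally reared mice, Klf9 and Thrsp were each 1.98-fold lower in GR-KO and Slco1c1 was 1.5-fold higher, whereas Dio2, Thra, Thrb, Hr and Crym did not pass the test. All values below are from edgeR's likelihood ratio test on UMI sums with Benjamini-Hochberg adjustment over all genes tested in that cell type, log2 fold changes are given ± SE, and n = 2 mice per group throughout. Of 8 members tested, 1 rose and 2 fell, where 7.11% of all genes tested in astrocytes were called (3.73% higher and 3.37% lower). The median log2 fold change of the members was -0.30, against 0.0013 over all genes.

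Klf9 in astrocytes was at 216 and 232 CPM in NR GR-Con (male and female) and 107 and 129 CPM in NR GR-KO. The groups did not overlap, and the change was -0.98 ± 0.16 (adjusted p = 9.09e-08). Here and below, non-overlap only describes the printed values, and the share of all genes whose groups separate so is not given. Thrsp was at 63.5 and 76.6 CPM in NR GR-Con and at 37.6 and 36.6 CPM in NR GR-KO, a change of -0.98 ± 0.15 (adjusted p = 1.29e-08). Both calls were kept by the quasi-likelihood test (adjusted p = 0.0026 and 0.00261), by DESeq2 and without any single library. Slco1c1 was at 693 and 735 CPM in NR GR-Con and 1074 and 1164 CPM in NR GR-KO, and rose by 0.58 ± 0.16 (adjusted p = 0.00596; quasi-likelihood 0.00897). Its call was lost without the NR GR-Con male (0.53, adjusted p = 0.152), the NR GR-Con female (0.64, 0.0767) or the NR GR-KO female (0.50, 0.184), where the fold stayed near the full one. Here and below, leaving out a library from a comparison of 2 against 2 leaves 1 library in its arm, which is assumed to vary like the other arm.

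Both NR GR-KO libraries had deeper astrocyte nuclei (median 8662 and 12123.5 UMIs, against 4889 to 7199 elsewhere). They had higher sums of neuron markers in astrocytes (1786 and 1977 CPM, against 1116 and 921 CPM in NR GR-Con). Sums of oligodendrocyte markers were higher too (193 and 151 CPM, against 132 and 114 CPM). Apart from the fit by neuron marker share that follows, the part of depth and of these sums in the results was not tested. In the astrocyte nuclei with a neuron marker share below the median, the changes were -1.04 for Klf9, -0.94 for Thrsp and 0.63 for Slco1c1 (adjusted p = 5.73e-07, 2.33e-07 and 0.00559). Endothelial markers, of the other type high in Slco1c1, summed to 13.1 and 6.87 CPM in astrocytes of NR GR-Con and 13.4 and 8.20 CPM in those of NR GR-KO, against 3876 to 7697 CPM in endothelial cells.

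In dark-reared mice the transporter differed most. Astrocyte Slco1c1 was at 499.8 and 561 CPM in DR GR-Con and at 1269 and 1429 CPM in DR GR-KO. Every GR-KO library was above every GR-Con library, by 1.37 ± 0.21 (adjusted p = 4.44e-08), or 2.59-fold. It was the only 1 of 8 members called, where 0.736% of all genes were called, and the median over members was -0.05 against -0.01 over all genes. The quasi-likelihood test called no gene in this comparison (0% of all genes; adjusted p = 0.0747 for Slco1c1), and the call was lost without the DR GR-KO female (adjusted p = 0.105). Klf9 was at 173 and 174 CPM in DR GR-Con and 102 and 115 CPM in DR GR-KO, a change of -0.65 ± 0.19 that did not pass (adjusted p = 0.0864). With the DR GR-Con arm reduced to 1 library, the adjusted p was 1.95e-06 without its male and 5.77e-05 without its female, at -0.62 and -0.67, and with a sex term it was 0.047. Thrsp, at 31.9 and 29.9 CPM in DR GR-Con and 24.2 and 31.4 CPM in DR GR-KO, overlapped between groups (-0.12 ± 0.25, adjusted p = 1.0).

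**Figure D2:**
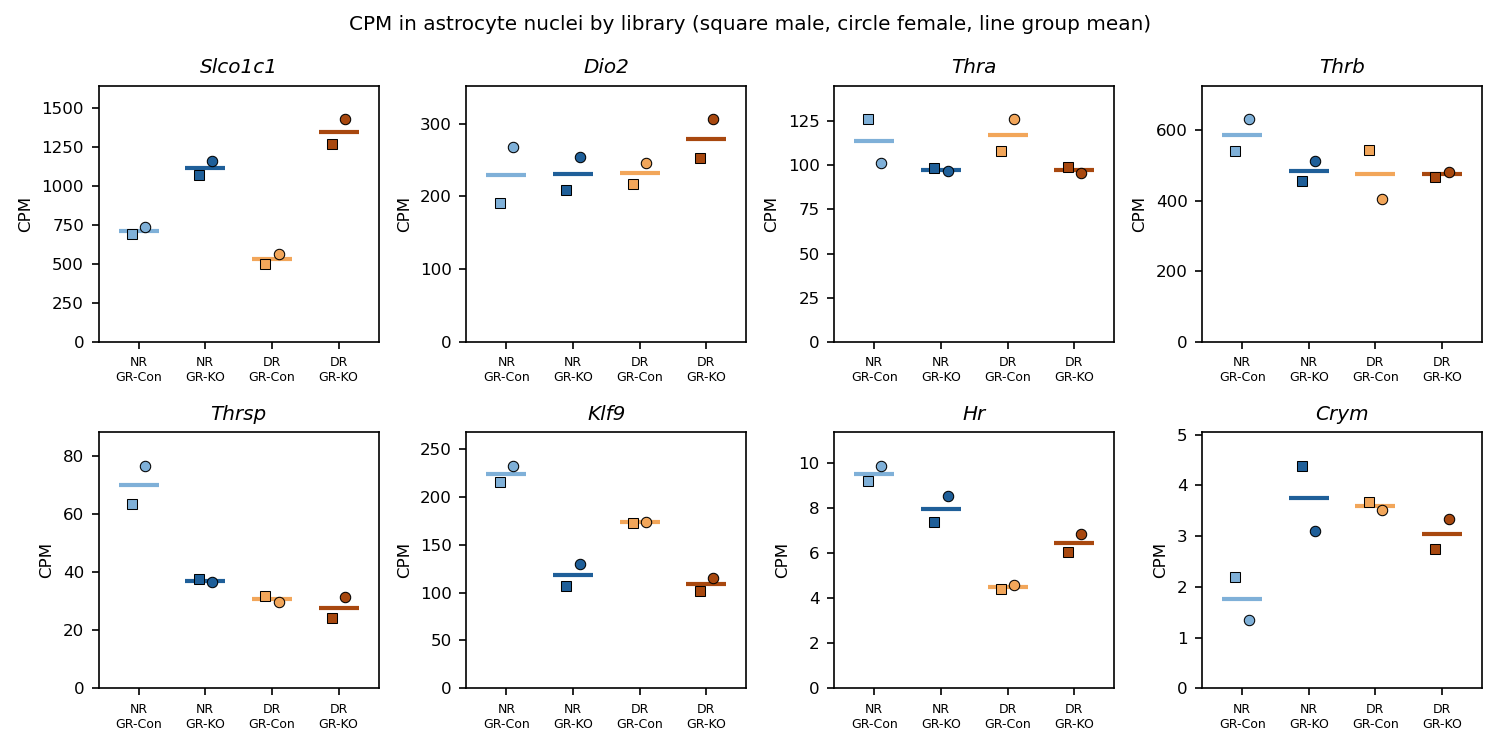
CPM of 8 genes in astrocytes by group, 1 point per library (square male, circle female), with the group mean as a line. Slco1c1 is at 1074 CPM or more in all 4 GR-KO libraries and at 735 CPM or less in all 4 GR-Con libraries, Klf9 is at 129 CPM or less in all GR-KO libraries and at 173 CPM or more in all GR-Con libraries, and Thrsp is highest in the 2 NR GR-Con libraries.

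Over both rearings, with rearing as a term, Klf9 fell by 0.82 ± 0.13 (adjusted p = 3.6e-08) and Slco1c1 rose by 0.97 ± 0.17 (adjusted p = 2.37e-06) in GR-KO astrocytes. For each gene the 4 GR-KO libraries were all on 1 side of the 4 GR-Con libraries, and both calls were kept by the quasi-likelihood test, by DESeq2 and without any single library. In this comparison 4.79% of all genes were called. Thrsp was at -0.57 ± 0.19 (adjusted p = 0.0569; 0.0454 with a sex term). Over both rearings Thra was 95.7 to 99.2 CPM in GR-KO and 101 to 126 CPM in GR-Con, a change of -0.27 ± 0.11 that did not pass (adjusted p = 0.185).

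Whether the genotype difference itself changed with rearing was tested by the interaction. None of 8 members passed in astrocytes by edgeR's likelihood ratio or quasi-likelihood test, where the likelihood ratio test called 0.386% of all genes. At an unadjusted p under 0.05 stood 4 members. Here and below, the share of all genes at that unadjusted cut is not given. DESeq2 called 1 member. That gene was Slco1c1, for which the difference in NR minus that in DR was -0.79 ± 0.24 (adjusted p = 0.129; DESeq2 0.0179). The interaction was -0.87 ± 0.28 for Thrsp (adjusted p = 0.192) and -0.87 ± 0.37 for Hr (adjusted p = 0.741). With a sex term the Slco1c1 interaction passed (-0.79 ± 0.18, adjusted p = 0.00407).

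Dark rearing was compared with normal rearing within each genotype, which shares its libraries with the comparisons above. In GR-Con astrocytes Thrsp went from 63.5 and 76.6 CPM in NR to 31.9 and 29.9 CPM in DR, a change of -1.19 ± 0.23 (adjusted p = 5.43e-04). It was the only 1 of 8 members called, where 0.147% of all genes were called. The quasi-likelihood test called none of the genes (adjusted p = 0.867 for Thrsp), DESeq2 gave 0.00476, and the call was lost without the NR GR-Con male (adjusted p = 0.249) or female (1.0). Oligodendrocyte marker sums in these astrocytes were 132 and 114 CPM in NR and 93.6 and 71.0 CPM in DR, neuron marker sums were 1116 and 921 CPM in NR and 1058 and 1674 CPM in DR, and their part in it was not tested. Hr was at 9.18 and 9.86 CPM in NR GR-Con and 4.40 and 4.59 CPM in DR GR-Con, a change of -1.09 ± 0.32 that did not pass (adjusted p = 0.172, unadjusted 7.25e-04).

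In GR-KO astrocytes none of the 8 members passed between rearings by edgeR's likelihood ratio test, the quasi-likelihood test or DESeq2, where the first called 2.85% of all genes, and 2 members had an unadjusted p under 0.05. These were Slco1c1 at 0.35 ± 0.16 (adjusted p = 0.28) and Dio2 at 0.35 ± 0.17 (adjusted p = 0.317). Dio2 was at 209 and 254 CPM in NR GR-KO and 252 and 306 CPM in DR GR-KO (male and female), overlapping between groups and higher in DR within each sex. With a sex term both genes were called, Slco1c1 at 0.34 ± 0.10 (adjusted p = 0.0177) and Dio2 at 0.35 ± 0.10 (0.0239), in a fit that called 5.02% of all genes. Over both genotypes Thrsp fell by 0.77 ± 0.19 (adjusted p = 0.012), the only member called where 0.935% of all genes were, and this was not kept by the quasi-likelihood test (adjusted p = 0.176) nor without the NR GR-Con male (0.0809), the NR GR-Con female (0.0824), the DR GR-Con male (0.0758) or the DR GR-KO male (0.111).

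**Figure D3:**
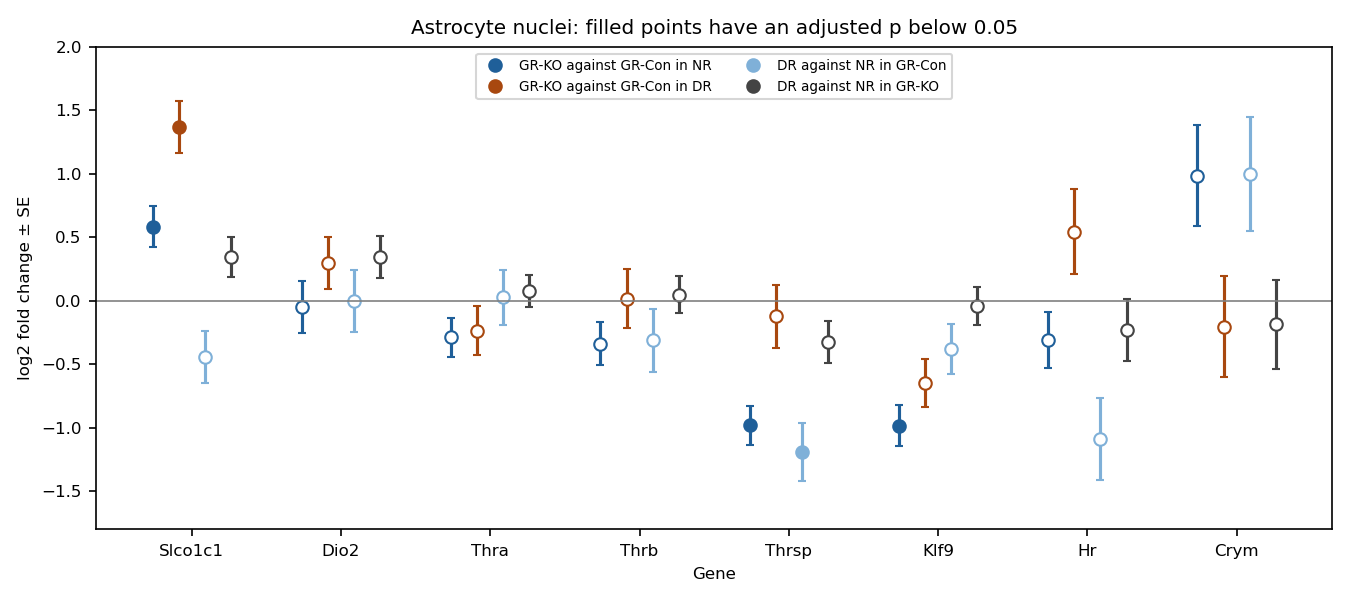
Log2 fold changes with their SE (vertical axis) of 8 genes (horizontal axis) in astrocytes, for 4 comparisons marked by colour; filled points passed at an adjusted p under 0.05. Klf9 and Thrsp lie near -0.98 for the genotype comparison in NR, and Slco1c1 at 0.58 in NR and 1.37 in DR.

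The receptors and the triiodothyronine-binding protein passed in no comparison in astrocytes without a sex term. With it, Thra (-0.28 ± 0.10, adjusted p = 0.0311), Thrb (-0.34 ± 0.09, 0.00166) and Crym (1.02 ± 0.35, 0.032) were called between the NR genotypes, in a fit that called 14.1% of all genes. Thrb was at 541 and 631 CPM in NR GR-Con, 456 and 512 in NR GR-KO, 545 and 406 in DR GR-Con and 468 and 481 in DR GR-KO, and its largest change was -0.34 ± 0.17 (NR GR-KO against NR GR-Con, adjusted p = 0.303). Crym was at 1.3 to 4.4 CPM in every astrocyte library, and its change in NR was 0.98 ± 0.40 (adjusted p = 0.132).

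Other genes of the pathway came from a list of 34, of which 33 were features and 24 to 26 were tested in astrocytes. GR-KO against GR-Con called 3 higher and 3 lower of 25 in NR (3.73% and 3.37% of all genes), none of 24 in DR (0.736% of all genes), and 1 higher and 2 lower of 26 over both rearings (4.79% of all genes). Sult1a1, a sulfotransferase that acts on iodothyronines, was at 31.1 and 19.6 CPM in NR GR-Con, 5.33 and 3.28 in NR GR-KO, 13.0 and 7.29 in DR GR-Con and 3.48 and 4.31 in DR GR-KO. It was lower in all GR-KO libraries, by -2.64 ± 0.30 in NR (adjusted p = 1.95e-16; quasi-likelihood 0.00177) and by -2.03 ± 0.33 over both rearings (adjusted p = 1.61e-07). Rxra, a partner of the hormone receptors, changed by -1.18 in NR (adjusted p = 0.0201; quasi-likelihood 0.101). Itih3, a hyaluronan-binding protein, changed by -0.68 in NR (adjusted p = 0.0133) and -1.06 over both rearings (adjusted p = 0.00399; quasi-likelihood 0.0672).

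Slco1b2, the neighbour of Slco1c1, was at 47.9 and 22.7 CPM in NR GR-Con and 59.6 and 83.1 CPM in NR GR-KO, against 7.85 and 12.7 CPM in DR GR-Con and 15.0 and 6.26 CPM in DR GR-KO. It was lower in every dark-reared library (-2.24 ± 0.34 over both genotypes, adjusted p = 2.41e-07; quasi-likelihood 0.083). Its genotype change in NR was 0.96 ± 0.31 (adjusted p = 0.0276), which the quasi-likelihood test (0.113) and DESeq2 (0.562) did not call. Slc7a5, a transporter of amino acids and triiodothyronine, was at -0.76 over both genotypes in DR (adjusted p = 0.00814; quasi-likelihood 0.144).

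Dark rearing called 1 lower of 25 such genes in GR-Con (0.147% of all genes were called), 1 higher and 5 lower of 24 in GR-KO (2.85%), and 6 lower of 26 over both genotypes (0.935%). Camk4, a kinase of neurons, was at 0.78 in NR GR-KO against NR GR-Con (adjusted p = 3.07e-04) and -0.64 in DR against NR in GR-KO (adjusted p = 0.0125). It moved with the neuron marker sums, which were 1068 and 1152 CPM in astrocytes of DR GR-KO and 1786 and 1977 CPM in those of NR GR-KO, and their part in it was not tested. Nrgn, a neuronal calmodulin-binding protein, fell by 0.76 ± 0.13 in DR against NR in GR-KO (adjusted p = 4.75e-06) and moved with the same sums. Ttr, the thyroxine carrier transthyretin, was at 5.38 CPM or less in every library and at -3.59 over both genotypes (adjusted p = 0.0207; quasi-likelihood 0.273). The myelin gene Mbp fell by 0.65 ± 0.18 in DR against NR in GR-KO (adjusted p = 0.0133). The oligodendrocyte markers moved with it, at 193 and 151 CPM in astrocytes of NR GR-KO and 105 and 98.7 CPM in those of DR GR-KO, and their part in it was not tested.

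Outside astrocytes, Hr was called in several neuron types by the likelihood ratio test and in fewer by the others. In GR-Con mice, dark rearing gave a negative Hr change in 12 of 12 neuron types tested (median -0.86, range -1.46 to -0.06), and 6 passed, where 1.02% of gene and type pairs over the neuron types were called lower, and 0.497% (Pvalb) to 2.85% (L2/3) of genes in the single types that passed. All-gene medians in the neuron types lay between -0.006 and 0.0027 in this comparison, and between -0.017 and 0.025 over all comparisons. The 12 types come from the same 4 libraries and are not replicates of each other.

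The DR GR-Con libraries were the lowest 2 of all 8 in each of the 6 types that passed. Hr in L5IT neurons was at 9.06 and 7.04 CPM in NR GR-Con and 3.34 and 3.08 CPM in DR GR-Con, a change of -1.33 ± 0.27 (adjusted p = 4.21e-05), which the quasi-likelihood test (0.0271) and DESeq2 (0.0237) kept and which was lost without the NR GR-Con male (0.054). In Pvalb interneurons it was at 5.78 and 7.71 CPM against 2.59 and 2.25 CPM, a change of -1.46 ± 0.29 (adjusted p = 2.28e-04; lost without the NR GR-Con female, 0.0906). In L2/3 neurons it was at 7.02 and 5.83 CPM against 2.97 and 4.01 CPM (adjusted p = 0.00158; lost without the NR GR-Con male, 0.281, or female, 0.0518). In all 3 types the NR and DR libraries did not overlap. The remaining calls were in L4 (-0.57 ± 0.17, adjusted p = 0.0346), L6IT (-0.96 ± 0.24, adjusted p = 0.0104) and L6CT neurons (-0.94 ± 0.29, adjusted p = 0.0471). Each was lost without the NR GR-Con male (0.738, 0.852 and 0.828) or female (0.286, 0.418 and 0.858), the L4 call also without the DR GR-Con male (0.165) and the L6CT call also without the DR GR-Con female (0.0982). The quasi-likelihood test called Hr in 1 of these types and DESeq2 in 2, L5IT and L2/3.

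In GR-KO mice Hr passed in none of 11 neuron types between rearings, by edgeR's likelihood ratio or quasi-likelihood test or by DESeq2 (5 negative, median 0.02, and 1 with an unadjusted p under 0.05). In dark-reared mice, GR-KO against GR-Con gave 11 of 11 positive Hr changes (median 0.82), of which 3 passed, where 0.351% of gene and type pairs were called higher. This comparison shares the DR GR-Con libraries with DR against NR in GR-Con, and its types share libraries, so the counts are not independent. Hr was at 2.97 and 4.01 CPM in L2/3 neurons of DR GR-Con and 6.77 and 6.25 CPM in those of DR GR-KO, a rise of 0.96 ± 0.23 (adjusted p = 0.0092; lost without the DR GR-KO male, 0.478, or female, 0.281). In L5PT neurons it was at 3.21 and 3.91 CPM against 7.15 and 7.03 CPM, a rise of 1.02 ± 0.25 (adjusted p = 0.0143), lost without the DR GR-Con male (0.124), the DR GR-KO male (0.328) or the DR GR-KO female (0.489). In L6CT neurons it was at 2.58 and 1.82 CPM against 4.74 and 4.82 CPM, a rise of 1.12 ± 0.30 (adjusted p = 0.0268), lost without the DR GR-KO male (0.966) or female (1.0). None of the 3 was called by quasi-likelihood, and DESeq2 called only L2/3 (0.00836). In NR the same contrast passed in 0 of 11 types by any of the 3 tests, with a median of -0.09 and 2 types at an unadjusted p under 0.05.

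The interaction for Hr was negative in 12 of 12 neuron types and passed in L5PT neurons, at -1.61 ± 0.35 (adjusted p = 0.00403), where 0.0491% of gene and type pairs over the neuron types were called lower. It rests on the same libraries as the comparisons above and is not a separate result. Hr in L5PT was at 7.07 and 5.39 CPM in NR GR-Con, 4.29 and 3.70 CPM in NR GR-KO, 3.21 and 3.91 CPM in DR GR-Con and 7.15 and 7.03 CPM in DR GR-KO. These levels rest on 10 to 89 UMIs per library, and the quasi-likelihood test did not call the interaction (0.387). It was lost without the NR GR-Con male (0.117) or the DR GR-KO female (0.0975). With a sex term it was kept, and L2/3 passed too (-1.25 ± 0.34, adjusted p = 0.0244). Oligodendrocyte Hr was at 16.4 to 25.6 CPM in the 8 libraries and passed in no comparison.

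**Figure D4:**
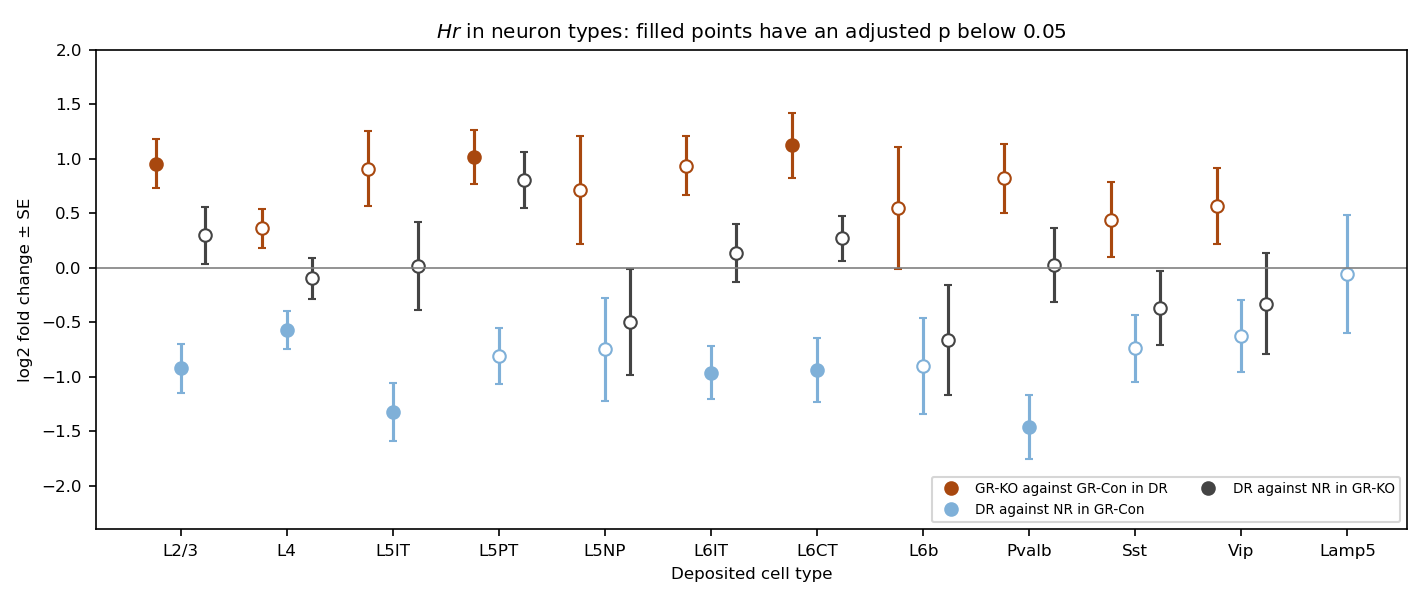
Log2 fold change of Hr with its SE (vertical axis) in each neuron type (horizontal axis) for 3 comparisons marked by colour; filled points have an adjusted p under 0.05. The points for DR against NR in GR-Con lie below 0 in 12 of 12 types, those for GR-KO against GR-Con in DR above 0 in 11 of 11, and those for DR against NR in GR-KO on both sides of 0. DR against NR in GR-Con and GR-KO against GR-Con in DR share the DR GR-Con libraries.

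Crym, highest in deep-layer neurons, was called between rearings in L2/3, L4 and L5PT neurons of GR-Con mice and in Pvalb interneurons. Of 9 neuron types tested in GR-Con, 3 passed as higher in DR, where 1.67% of gene and type pairs were called higher, and 1.8% (L5PT) to 4.6% (L2/3) of genes in the single types. In L2/3 neurons it was at 0.713 and 0.471 CPM in NR GR-Con and 4.93 and 2.41 CPM in DR GR-Con, a rise of 2.58 ± 0.46 (adjusted p = 1.74e-06) that DESeq2 kept (4.82e-07) and that no single library ended, but that the quasi-likelihood test did not call (0.0527). In L4 neurons it was at 2.43 and 1.92 CPM against 14.2 and 4.70 CPM, a rise of 2.14 ± 0.52 (adjusted p = 0.00311; quasi-likelihood 0.202, DESeq2 0.133; lost without the NR GR-Con male, 0.0956, or female, 0.212). Without the DR GR-Con male the rise was 1.11, and without the DR GR-Con female 2.73; in L2/3 it was 1.94 without the DR GR-Con male. The male library was the higher in 4 of 4 groups in L2/3 and L4. In GR-KO mice none of 11 neuron types was called higher in DR, and L2/3 was at 3.0 and 0.873 CPM in NR and 3.09 and 1.10 CPM in DR. With a sex term the Crym interaction passed in L2/3 (2.38 ± 0.42, adjusted p = 1.2e-05) and L4 (2.07 ± 0.47, 0.00258). Crym was then also called between the NR genotypes in L2/3 (1.54), L6IT (1.64) and oligodendrocytes (1.52), between the DR genotypes in L4 (-1.17), and over both genotypes in L2/3 (1.33). Of all gene and type pairs outside astrocytes, fits with a sex term called 0.992% between the NR genotypes and 1.12% between the DR genotypes. They called 0.586% for the interaction, 6.26% for DR against NR in GR-KO and 6.85% over both genotypes.

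L6CT neurons, the type highest in Crym, had marker sums of 620 and 658 CPM in L4 of NR GR-Con and 899 and 839 CPM in L4 of DR GR-Con, 17.7 and 18.0 CPM against 27.6 and 37.3 CPM in L2/3, and 111 and 162 CPM against 186 and 388 CPM in L5PT, whereas they summed to 4512 to 5860 CPM in L6CT itself. These sums were also high in other types: in NR GR-Con they were 3706 and 4080 CPM in L6b and 2098 and 2088 CPM in L5NP. Hs3st4, their largest gene (3724 CPM in L6CT), was highest in L6b. In L4 of GR-KO the sums were 461 and 560 CPM in NR and 838 and 887 CPM in DR. Crym there was at 7.12 and 2.46 CPM in NR and 6.68 and 1.84 CPM in DR. In L2/3 of GR-KO the sums were 27.7 and 27.1 CPM in NR and 31.1 and 22.2 CPM in DR. The part of L6CT RNA in the Crym change was not tested.

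In L5PT neurons Crym was at 60.3 and 56.3 CPM in NR GR-Con, 84.0 and 90.7 in NR GR-KO, 95.5 and 83.7 in DR GR-Con and 109 and 66.7 in DR GR-KO. NR GR-Con was the lowest group, with a change of 0.61 ± 0.15 for DR against NR in GR-Con (adjusted p = 0.00344; quasi-likelihood 0.0692), lost without the NR GR-Con male (0.143) or female (0.403). Between the NR genotypes it was 0.58 ± 0.16 (adjusted p = 0.0215; quasi-likelihood 0.277, DESeq2 0.23), the only 1 of 10 neuron types for Crym where 0.187% of pairs were called higher, lost without the NR GR-Con male (0.943) or female (1.0). Both share the NR GR-Con libraries. In L6CT (71.0 to 99.6 CPM) and L5NP (57.5 to 85.3 CPM), the other 2 types high in Crym, no comparison passed. In L5NP the groups overlapped. In L6CT Crym was at 92.5 and 98.9 CPM in NR GR-Con and 90.6 and 90.0 CPM in NR GR-KO, without overlap. DR GR-KO, at 88.0 and 79.0 CPM, was below both, and DR GR-Con, at 99.6 and 71.0 CPM, overlapped each of them.

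**Figure D5:**
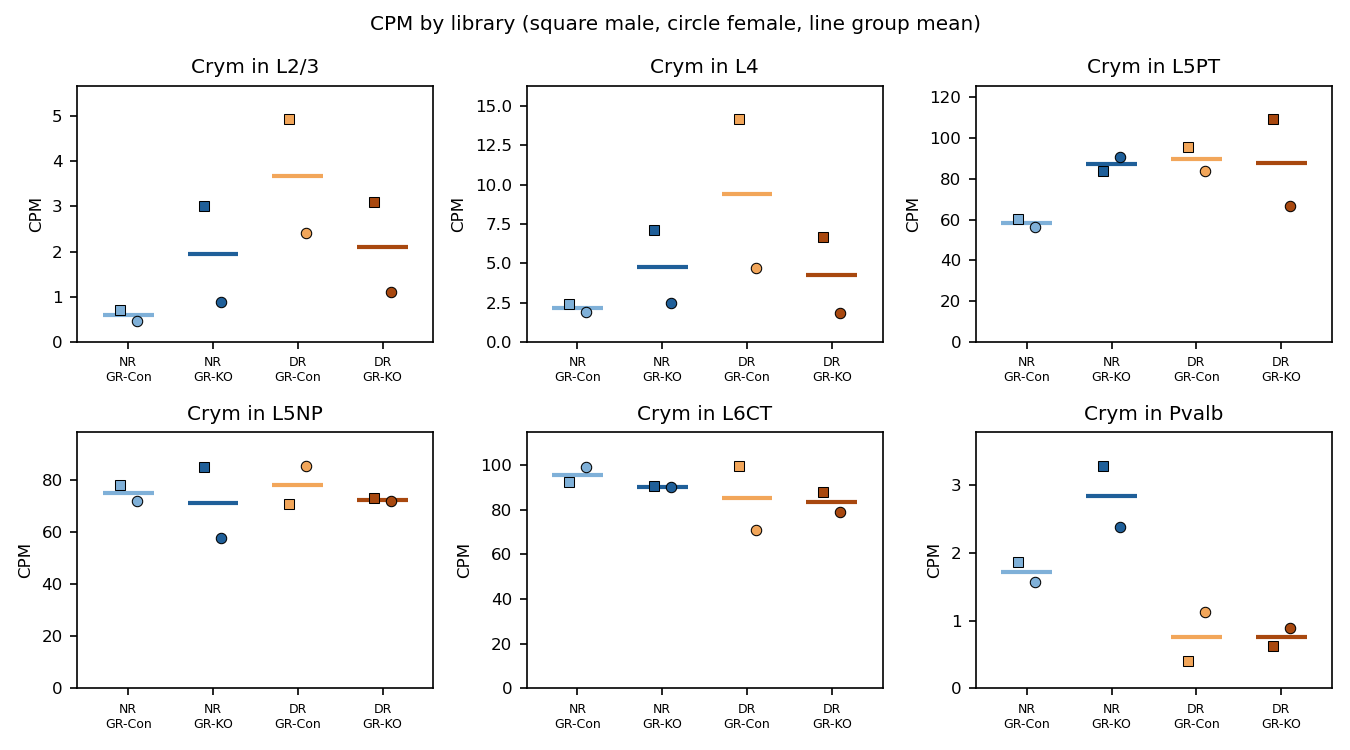
Crym in CPM by group in L2/3, L4, L5PT, L5NP, L6CT and Pvalb neurons, 1 point per library (square male, circle female), with the group mean as a line. In L4 the DR GR-Con male library stands alone at 14.2 CPM, and in L5PT the 2 NR GR-Con libraries (60.3 and 56.3 CPM) are below the other 6.

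In Pvalb interneurons Crym was lower in DR, at 3.29 and 2.38 CPM in NR GR-KO and 0.623 and 0.886 CPM in DR GR-KO. The change was -1.87 ± 0.46 (adjusted p = 0.00641; quasi-likelihood 0.0821), where 1.66% of pairs were called lower, and it was lost without the NR GR-KO male (0.0955), the DR GR-KO male (0.235) or the DR GR-KO female (0.133). Over both genotypes it fell by 1.51 ± 0.34 (adjusted p = 0.00168; quasi-likelihood 0.0509), where 2.98% were called lower. DESeq2 gave no adjusted p (NA) for Crym in either comparison.

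Slco1c1 in excitatory neurons was at 0.527 to 3.1 CPM in the 4 types with calls, 0.0546% to 0.289% of its astrocyte level, and astrocyte marker sums there were 0.427% to 1.47% of theirs. Over both genotypes it was lower in DR in 4 of 11 neuron types, in which 3.26% (L6IT) to 8.26% (L2/3) of genes were called lower. In L4 it was at 1.93 and 1.28 CPM in NR GR-Con, 3.1 and 2.34 in NR GR-KO, 0.666 and 1.23 in DR GR-Con and 1.03 and 0.908 in DR GR-KO, without overlap between rearings (-1.07 ± 0.27, adjusted p = 0.00213; quasi-likelihood 0.0392). In L6CT it fell by 0.80 ± 0.22 (adjusted p = 0.00427; quasi-likelihood 0.0363), and neither call was lost without any single library. In L2/3 it fell by 0.84 ± 0.23 (adjusted p = 0.00416; lost without the NR GR-Con male, 0.0565) and in L6IT by 1.03 ± 0.29 (adjusted p = 0.0122; quasi-likelihood 0.0687), lost without the NR GR-Con male (0.0763), the NR GR-KO male (0.0716) or the DR GR-KO male (0.137). Within GR-KO, where 1.66% of gene and type pairs were called lower, the same 4 of 10 types passed, led by L4 at -1.42 ± 0.29 (adjusted p = 1.55e-04; quasi-likelihood 0.0565; lost without the DR GR-KO female, 0.106). L2/3 was at -0.84 (adjusted p = 0.0106), lost without the DR GR-KO male (0.408) or the DR GR-KO female (0.286) and by the quasi-likelihood test (0.0624). L6CT (-0.89, adjusted p = 0.0316) and L6IT (-1.27, adjusted p = 0.0384) were each lost under DESeq2 (0.222 and 0.399), under the quasi-likelihood test (0.12 and 0.152) and without the NR GR-KO male (0.136 and 0.131), the DR GR-KO male (0.379 and 0.734) or the DR GR-KO female (0.397 and 0.134). With a sex term Slco1c1 was also called between the NR genotypes in L2/3 (0.85) and L4 (0.77), and in GR-KO in L5IT (-1.43). The part of astrocyte RNA in the neuron sums was not tested.

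Thra rose in DR over both genotypes in 4 of 12 neuron types, where 2.95% of pairs were called higher, and 1.86% (L5PT) to 7.63% (L2/3) of genes in the single types. In L6CT neurons it was at 103 and 98.5 CPM in NR GR-Con, 111 and 95.0 in NR GR-KO, 119 and 119 in DR GR-Con and 146 and 139 in DR GR-KO. All 4 DR libraries were above all 4 NR libraries, by 0.36 ± 0.10 (adjusted p = 0.00443; quasi-likelihood 0.0207), lost without the DR GR-KO male (0.0563). It rose by 0.41 ± 0.11 in L5PT (adjusted p = 0.01; quasi-likelihood 0.079), lost without the NR GR-Con male, the NR GR-Con female, the DR GR-Con female or the DR GR-KO male (0.0515 to 0.103). In L6IT it rose by 0.31 ± 0.09 (adjusted p = 0.0173), lost without the NR GR-Con female, the NR GR-KO female, the DR GR-Con female, the DR GR-KO male or the DR GR-KO female (0.0551 to 0.13). In L2/3 it rose by 0.28 ± 0.10 (adjusted p = 0.0408), lost without any single library other than the DR GR-Con male (0.0508 to 0.196). Within GR-KO, where 1.75% of pairs were called higher, L6CT passed (0.48 ± 0.15, adjusted p = 0.0294; quasi-likelihood 0.0874), lost without the NR GR-KO female (0.245), the DR GR-KO male (0.443) or the DR GR-KO female (0.414). L6IT passed there too once sex was a term (0.40 ± 0.13, adjusted p = 0.0261). In oligodendrocytes, where Thra was highest, it was at 231 to 247 CPM in every library.

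Klf9 passed in no neuron type in any comparison by edgeR's tests without a sex term (with it, L2/3 passed for DR against NR in GR-KO, 0.39 ± 0.13, adjusted p = 0.0184), and DESeq2 called it in 1 type for DR against NR in GR-KO. At an unadjusted p under 0.05 it stood in 5 of 12 neuron types for DR against NR in GR-Con and in 5 of 12 for GR-KO against GR-Con in DR, which share the DR GR-Con libraries, in 4 of 12 for DR against NR in GR-KO (median 0.23 over the types, against -0.27 in GR-Con) and in 3 of 12 for the interaction. In L2/3 neurons it was at 54.4 and 48.9 CPM in NR GR-Con and 42.7 and 57.0 CPM in DR GR-Con, so that the DR male was the lowest and the DR female the highest. Dio2, Thrb and Thrsp passed in no neuron type by any of the 3 tests, and at an unadjusted p under 0.05 they stood in 0, at most 2 and at most 3 types of a comparison. For these and the other counts at an unadjusted p, the share of all genes is not given.

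In non-neuronal types other than astrocytes, Crym was called in oligodendrocytes between the NR genotypes with a sex term (1.52 ± 0.46, adjusted p = 0.0496). Without a sex term 2 calls were made, Slco1c1 and Thrb, both in VLMC for DR against NR in GR-KO. In that comparison 19.9% of all genes tested in VLMC were called. Slco1c1 there was at 55.3 and 9.76 CPM in NR GR-KO and 81.2 and 194 CPM in DR GR-KO (1.94 ± 0.73, adjusted p = 0.0402; quasi-likelihood 0.084), lost without the NR GR-KO female (0.0643) or the DR GR-KO female (0.410). Leaving out 1 library moved it to 3.52 (NR GR-KO male), 1.13 (NR GR-KO female), 2.54 (DR GR-KO male) or 1.16 (DR GR-KO female). Endothelial marker sums in these nuclei were 141 and 160 CPM in NR GR-KO and 234 and 274 CPM in DR GR-KO, and their part in it was not tested. Thrb was at -0.94 ± 0.31 (adjusted p = 0.0164; quasi-likelihood 0.032, DESeq2 0.13) and was lost without any single library (NR GR-KO male 0.0517, NR GR-KO female 0.0787, DR GR-KO male 0.169, DR GR-KO female 0.282). Endothelial Slco1c1, at 1012 and 1264 CPM in NR GR-Con, 797 and 1470 in NR GR-KO, 1427 in the DR GR-Con male and 1461 and 903 in DR GR-KO, passed in no comparison that could be fitted.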

How the data were processed

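Nuclei of V1 from 8 mice were profiled by 10x 3′ RNA-seq. Per the labels and the study's methods, the authors aligned reads to mm10 with Cell Ranger 8.0.1, removed doublets with DoubletFinder and nuclei outside their limits, and named cell types in Seurat 5.3.0. The deposited matrix holds raw UMI counts, and the deposited cell table gives each nucleus its library and cell type, used as given, beside the authors' percent of mitochondrial UMIs, not used. UMIs were summed per library and type, needing 10 nuclei. Each comparison was fitted over all genes of a type in edgeR 4.0.16 (filterByExpr, TMM, likelihood ratio test, called at adjusted p under 0.05, two-sided) in R 4.3.3, and the methods were tested on simulated data. SE is the log2 fold change over the square root of the likelihood ratio statistic. DESeq2 1.42.0 and the quasi-likelihood test were alternatives. All 9 genes were named in every comparison, and other pathway genes where called in astrocytes, some of which are not reported here. The genes and lists were chosen with earlier results of these data known.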

Additional observations from a re-analysis of the deposited data

Results flagged for a closer look

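The genotype difference of Hr in L5PT neurons differed between the rearings by the test of the interaction (-1.61 ± 0.35, adjusted p = 0.00403, edgeR likelihood ratio test, n = 2 mice in each of 4 groups). GR-KO minus GR-Con was negative in NR (4.29 and 3.70 CPM against 7.07 and 5.39 CPM) and positive in DR (7.15 and 7.03 CPM against 3.21 and 3.91 CPM). The NR GR-KO female library held 59 L5PT nuclei where the others held 384 to 504, and the quasi-likelihood test gave an adjusted p of 0.387.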

How the results depend on the processing

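No paired analysis was possible because the cell table carries no replicate numbers to block on, whereas blocking by sex was possible and is the sex term below. It added member calls outside astrocytes in 5 comparisons and lost none. Of 41 named results, 40 kept their direction under every alternative and 6 also kept their side of the threshold. The genotype difference of astrocyte Thrsp in DR ranged from -0.35 to 0.072 on leaving out 1 library and reversed without the DR GR-KO male; the cause was not tested. Members called in astrocytes between the NR genotypes were 3, and 6 with a sex term, where the share of all genes called went from 7.11% to 14.1%. In DR they were 1, against 0 by the quasi-likelihood test and 2 with a sex term or in 1 fit over 8 libraries (0.736% of all genes, 0% by quasi-likelihood, 1.58% with a sex term). For DR against NR in GR-Con they were 1, against 0 by quasi-likelihood and 2 in 1 fit over 8 libraries (0.147% of all genes, 0% by quasi-likelihood). In GR-KO they were 0, against 2 with a sex term (2.85% and 5.02% of all genes). For the interaction they were 0, against 1 by DESeq2 or with a sex term (0.386% of all genes, 0.637% with a sex term). Over both genotypes they were 1, against 0 by quasi-likelihood (0.935% of all genes by the likelihood ratio test). Astrocyte shares by DESeq2 and in 1 fit over 8 libraries are not given. Calls of members outside astrocytes were 1 in NR (0 by quasi-likelihood, by DESeq2 and in 1 fit over 8 libraries, 6 with a sex term), 3 in DR (0 by quasi-likelihood, 1 by DESeq2), 9 for DR against NR in GR-Con (1 and 4) and 8 in GR-KO (1 and 5, 5 without a filter and 4 in 1 fit over 8 libraries). For the interaction 1 was called (0 by quasi-likelihood, 4 with a sex term). Over all gene and type pairs outside astrocytes the shares called were 0.37% in NR (0.0318% by quasi-likelihood, 0.132% by DESeq2, 0.181% in 1 fit over 8 libraries, 0.992% with a sex term), 0.496% in DR (0.00462% by quasi-likelihood, 0.366% by DESeq2), 2.4% for DR against NR in GR-Con (0.531% and 1.61%), 3.71% in GR-KO (0.793% and 2.6%, 1.82% without a filter, 2.9% in 1 fit over 8 libraries) and 0.166% for the interaction (0.00246% by quasi-likelihood, 0.586% with a sex term). Leaving out 1 library at a time gave in astrocytes 2 to 3 calls between the NR genotypes, 0 to 2 in DR, 0 to 2 for DR against NR in GR-Con, 0 in GR-KO, 0 to 2 for the interaction, 2 to 3 over both rearings and 0 to 1 over both genotypes, and outside astrocytes 0 to 6, 0 to 9, 3 to 16, 0 to 11, 0 to 6, 0 to 1 and 4 to 15, where the shares of all pairs ran from 0.142% to 1.93%, 0.121% to 2.2%, 0.801% to 4.91%, 0.849% to 6.23%, 0.0655% to 0.656%, 0.0593% to 0.553% and 2.49% to 6.16%. The shares on leaving out 1 library are for pairs outside astrocytes, and those in astrocytes are not given. With 2 mice per group, depth and group size limit changes of low genes such as Hr and Crym.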

Other observations

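Each group held 1 male and 1 female library, and the order of the sexes was read in 4 groups. In astrocytes the female library was the higher in 4 of 4 groups for Slco1c1, Dio2 and Klf9, and for Hr, which lies under 10 CPM. Over the 9005 genes at 10 CPM or more in astrocytes, the female was the higher in all 4 groups for 522 (5.80%) and the male for 834 (9.26%). For Crym the male was the higher in 4 of 4 groups in L2/3 and L4. No test was run on these orders.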
